A study of Homo sapiens with 6 samples.

Results

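CD14, SELPLG, CD22 and PDCD1LG2 encode surface proteins best known from immune cells, and here their transcripts were followed in a breast cancer line. The 4 genes were taken by symbol, each through its single probe set on the array, out of 14884 genes named in the platform annotation. They were chosen by their log2 differences between siATM, sip53 and siNC in these same arrays, so their values below are a description without a test. All 4 passed the filter on dim genes, a mean log2 value over the 6 arrays at or above 5.96, which 10640 genes passed.

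The arrays compared MDA-MB-231 cells, an established human line from a triple-negative breast cancer, after transfection with siATM (against ATM, the kinase that signals DNA breaks), sip53 (against the transcription factor p53) or the control siRNA siNC. Each siRNA has 2 arrays, and every group received its siRNA with a lipid reagent. MDA-MB-231 carries a mutant p53, and the labels name no difference between groups other than the siRNA. The siRNA sequences, the time after transfection and whether the 2 samples of a group were separate cultures are not given in the sources used here, so the spread between arrays may be technical. The transcripts of both targeted genes are not analysed here. The values are bulk measurements, in which a change in few cells and a change in RNA per cell cannot be told apart.

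CD14 is a membrane-anchored co-receptor that binds bacterial lipopolysaccharide and passes it to the receptor pair of TLR4 and LY96, chiefly on monocytes and macrophages. SELPLG encodes the mucin-like P-selectin glycoprotein ligand, which lets leukocytes roll on activated endothelium once sulfated and glycosylated. CD22 is an inhibitory lectin of B cells that recognises sialic acid and carries tyrosine motifs for phosphatases. PDCD1LG2 encodes PD-L2, which binds the checkpoint receptor PD-1 on T cells and is found on dendritic cells, macrophages and some tumour cells, and its gene lies beside CD274, which encodes the related ligand PD-L1.

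CD14 and CD22 were both higher with siATM and lower with sip53 than with siNC. The promoter windows that RefSeq gives for this pair are shown so that the sequence upstream of the affected transcripts can be read beside their values. Each window holds 250 bases before and 50 after the start that the RefSeq table uses, on build GRCh38.p14, and the table used here held no window for SELPLG or PDCD1LG2. The CD14 window is chr5:140633126-140633425 on the minus strand, with its start 526 bases inside the 5′ end of the annotated gene. The CD22 window is chr19:35328937-35329236 on the plus strand, with its start at the 5′ end of the gene. Capitals mark matches to the motifs searched.
CD14: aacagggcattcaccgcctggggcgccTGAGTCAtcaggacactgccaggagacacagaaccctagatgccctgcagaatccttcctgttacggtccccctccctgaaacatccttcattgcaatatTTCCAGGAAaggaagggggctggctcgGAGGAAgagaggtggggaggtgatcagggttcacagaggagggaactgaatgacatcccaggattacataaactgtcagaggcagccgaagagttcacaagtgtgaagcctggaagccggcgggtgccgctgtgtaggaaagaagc
CD22: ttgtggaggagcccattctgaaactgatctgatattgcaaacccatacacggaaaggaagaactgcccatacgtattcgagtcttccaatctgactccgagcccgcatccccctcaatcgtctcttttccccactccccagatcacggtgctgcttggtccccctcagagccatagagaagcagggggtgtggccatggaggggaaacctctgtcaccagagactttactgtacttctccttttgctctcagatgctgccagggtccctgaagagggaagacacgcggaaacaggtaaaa

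Letter patterns of known regulatory factors were searched on both strands of the windows. In the CD14 window TGANTCA, the core of AP-1 sites, matched from base -223 relative to the start. TTCNNNGAA, the core of STAT sites, matched from base -123, and GAGGAA, a core of ETS-type sites, from base -96. These 3 matches did not overlap. TGANTCA and TTCNNNGAA read the same on both strands, so only GAGGAA has a direction, that of the gene. Of 35116 promoter windows of the same length, 7.71% held TGANTCA, 7.66% held TTCNNNGAA and 27.9% held GAGGAA. The Sp1-type pattern GGGCGG, held by 45% of all windows, matched neither window. Neither did the interferon response element (3.57% of windows), the NF-kB site (1.61%) or the p53 half-site (6.63%). The CD22 window matched none of the patterns, which says only that these letters are not in these 300 bases. G and C made up 55.7% of the CD14 window and 53% of the CD22 window, against a median of 58.7% over all windows.

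CD14 had the largest difference of the 4 genes between siATM and sip53. Its log2 values were 9.57 and 9.49 with siATM, 7.72 and 7.41 with sip53, and 8.35 and 8.33 with siNC. No array of one group reached the values of another, in the order siATM, siNC, sip53. The means were 9.53 ± 0.05 with siATM, 7.56 ± 0.22 with sip53 and 8.34 ± 0.01 with siNC (SD, n = 2 each). CD14 was 2.28-fold higher with siATM than with siNC (log2 difference 1.19), the eighth largest positive difference among the tested genes. With sip53 it was 1.72-fold lower than with siNC (log2 difference -0.78), and only 0.404% of the tested genes differed by more in either direction. Between siATM and sip53 the log2 difference was 1.97, or 3.92-fold, and no other tested gene had a larger positive one. The 2 sip53 arrays differed by 0.31 for CD14, a spread that 2.02% of the tested genes exceeded in that group. The difference of sip53 from siNC was -0.93 without sip53 replicate 1 and -0.62 when replicate 2 was the one left out.

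SELPLG followed the same order. It had log2 values of 9.55 and 9.54 with siATM, 8.26 and 8.14 with sip53, and 8.51 and 8.52 with siNC. The siATM and siNC arrays each agreed within 0.01, and the 3 groups did not overlap. Means were 9.54 ± 0.01 with siATM, 8.20 ± 0.08 with sip53 and 8.52 ± 0.01 with siNC (SD, n = 2 each). The gene was thus 2.04-fold higher with siATM than with siNC (log2 difference 1.03). With sip53 it was 1.25-fold lower (log2 difference -0.32), and 7.86% of the tested genes differed by more. The siATM arrays were 2.54-fold above the sip53 arrays (log2 difference 1.35).

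CD22 showed smaller differences from siNC with siATM, and the 2 arrays of each group lay within 0.03 of each other. Its log2 values were 9.0 and 8.99 with siATM, 7.83 and 7.86 with sip53, and 8.31 and 8.32 with siNC. All 3 groups were again separate, with gaps of 0.66 between the siATM and siNC arrays and 0.45 between the sip53 and siNC arrays. The means of 8.99 ± 0.01 with siATM, 7.85 ± 0.02 with sip53 and 8.32 ± 0.01 with siNC (SD, n = 2 each) correspond to 1.60-fold higher values with siATM than with siNC and 1.39-fold lower values with sip53 than with siNC. On the log2 scale these differences were 0.68 and -0.47. Between siATM and sip53 the difference was 1.15, or 2.22-fold.

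PDCD1LG2 went the other way with siATM. Its log2 values were 7.66 and 7.50 with siATM, 8.75 and 8.70 with sip53, and 8.83 and 8.91 with siNC. The siATM arrays lay far below the others, by 1.04 from the nearest sip53 array, while the sip53 arrays lay under the siNC arrays by a gap of only 0.07. Means were 7.58 ± 0.12 with siATM, 8.73 ± 0.04 with sip53 and 8.87 ± 0.06 with siNC (SD, n = 2 each). PDCD1LG2 was 2.45-fold lower with siATM than with siNC (log2 difference -1.29), with 8 of the tested genes lower still. The sip53 arrays differed from the siNC arrays by -0.14 on the log2 scale, a size that 34.2% of the tested genes exceeded. With siATM the gene was also 2.22-fold lower than with sip53 (log2 difference -1.15).

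**Figure D1:**
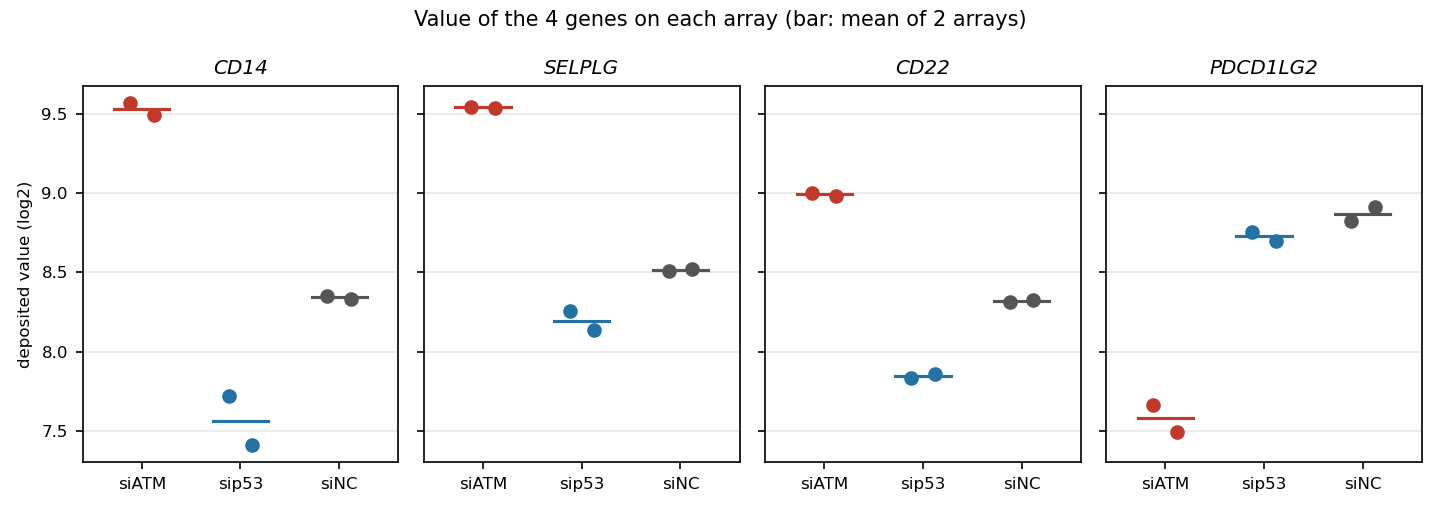
Deposited log2 value of CD14, SELPLG, CD22 and PDCD1LG2 on each of the 6 arrays, by siRNA (siATM, sip53, siNC from left to right), with a point per array and a bar at the mean of 2 arrays. The first 3 genes are highest with siATM and lowest with sip53, while PDCD1LG2 is lowest with siATM and its sip53 and siNC values lie close together.

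The counts of related genes below are set beside those over the whole array. In a fit across all 10640 tested genes (limma, Benjamini-Hochberg adjusted p below 0.05, termed a call), 25.5% were called with siATM against siNC (12.5% higher and 13% lower), 10.6% with sip53 against siNC (5.47% higher and 5.11% lower) and 30.3% with siATM against sip53 (14% higher and 16.3% lower). The median log2 difference over all tested genes was -0.0006 with siATM, 0.01 with sip53 and -0.01 between siATM and sip53. The sip53 calls were 582 higher and 544 lower, or 410 higher and 668 lower after the tested genes' median was subtracted from each array. With siATM against sip53 they were 1487 higher and 1732 lower, or 1669 higher and 1558 lower after that step. Calls with siATM against siNC numbered 2708, but 1437 without siNC replicate 1 and 1489 without siNC replicate 2. With sip53 against siNC there were 1126 calls, but 289 without sip53 replicate 1, 272 without sip53 replicate 2, 311 without siNC replicate 1 and 329 without siNC replicate 2. With siATM against sip53 there were 3219, but 1842 and 1884 without replicate 1 or replicate 2 of sip53. The siATM and sip53 differences from siNC use the same siNC arrays, so they are not independent of each other.

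**Figure D2:**
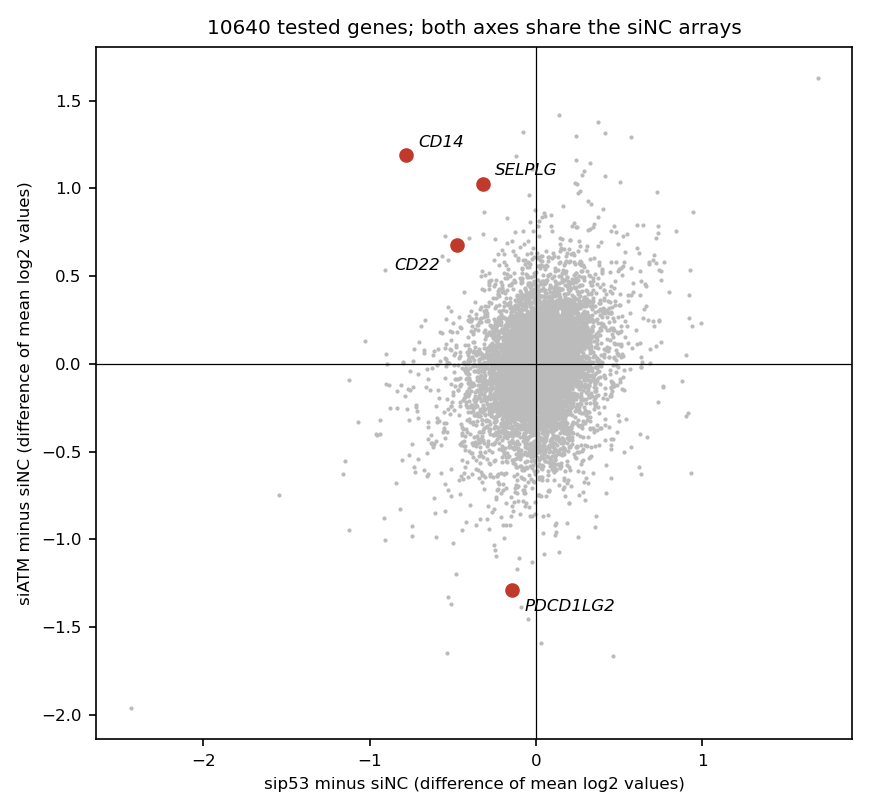
Difference of mean log2 values with siATM from siNC (vertical axis) against that with sip53 from siNC (horizontal axis) for the 10640 tested genes, in grey, with CD14, SELPLG, CD22 and PDCD1LG2 in red. The siNC arrays enter both axes. CD14, SELPLG and CD22 lie in the upper left, at 1.19, 1.03 and 0.68 with siATM, and PDCD1LG2 lies at -1.29 on the vertical axis and near 0 on the horizontal one.

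Likeness of pattern was measured as the Euclidean distance over the 6 arrays after each gene was set to its own siNC mean, in log2 units. By this measure SELPLG was the tested gene nearest to CD14 (0.70), and CD22 lay 0.88 from CD14 and 0.55 from SELPLG. Seen from SELPLG, 41 tested genes lay nearer than CD14 and 14 nearer than CD22. Seen from CD22, 708 lay nearer than CD14 and 51 nearer than SELPLG. PDCD1LG2 lay between 2.82 and 3.63 from the other 3. Outside these 4 genes and the symbols of non-coding and uncharacterised genes, those nearest to CD14 were PLLP (0.76), which encodes the membrane protein plasmolipin, HSD17B3 (0.87), a steroid dehydrogenase gene, and DEPP1 (0.93). The differences of CD14 from siNC were larger than theirs in both directions. Nearest to SELPLG were HSD17B3 (0.30), the sestrin gene SESN3 (0.36) and the retinal reductase gene DHRS3 (0.41), the last of which differed from siNC by 0.96 with siATM and by -0.04 with sip53. CD22 had the closest matches, PLLP (0.14), the tight-junction gene CLDN7 (0.15) and DEPP1 (0.17). PLLP had log2 values of 10.4 on both siATM arrays, 9.16 and 9.15 with sip53, and 9.73 and 9.67 with siNC. Nearest to PDCD1LG2 were QNG1 (0.20), CRISPLD2 (0.21) and the centrosome kinase gene NEK2 (0.28), whose differences from siNC were -1.39, -1.17 and -1.11 with siATM and -0.09, -0.11 and -0.10 with sip53. When 1 array was left out, at least 2 of the 3 nearest genes stayed the same for SELPLG, CD22 and PDCD1LG2, and 1 to 3 stayed for CD14.

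**Figure D3:**
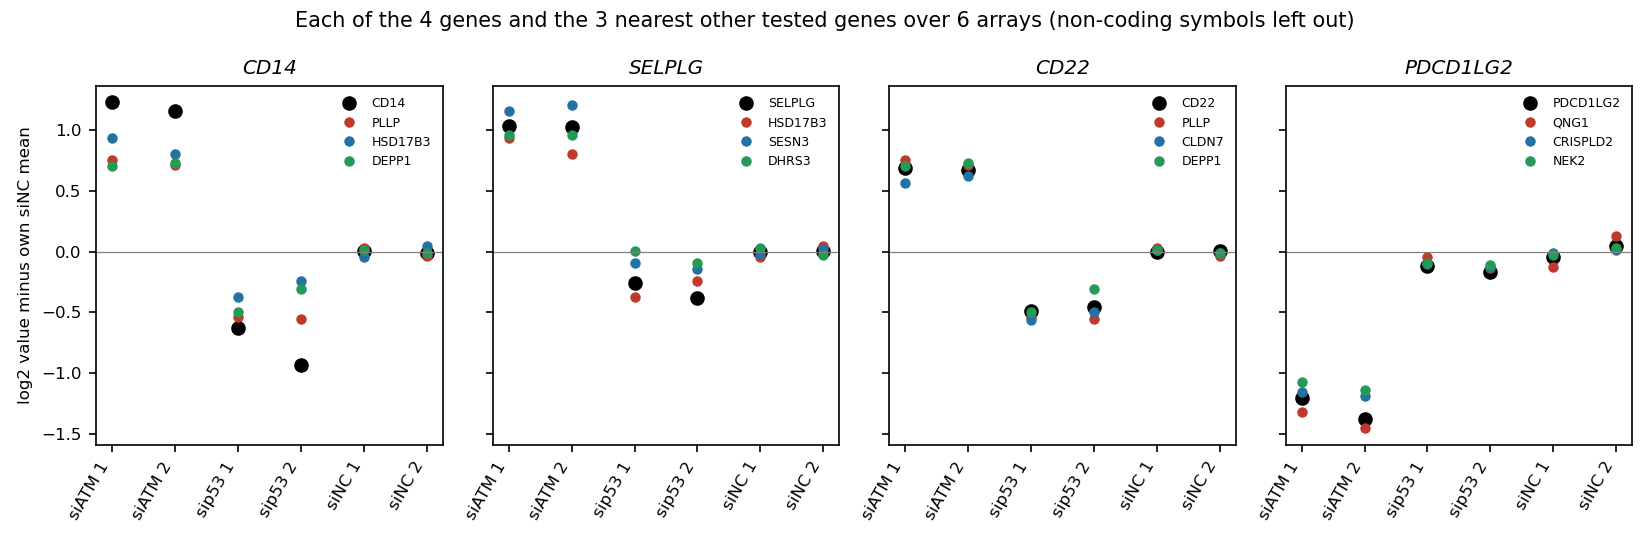
Log2 value minus the gene's own siNC mean on each array for CD14, SELPLG, CD22 and PDCD1LG2 (black) and, in each panel, the 3 tested genes nearest to it over the 6 arrays (colours), leaving out these 4 genes and the symbols of non-coding and uncharacterised genes. The matches of CD22 lie close to it, while CD14 lies farther from 0 than all 3 of its nearest genes on every siATM and sip53 array.

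The receptor and adaptors that CD14 works with were read next. TLR4, the signalling receptor for lipopolysaccharide, had log2 values of 8.45 and 8.44 with siATM, 8.11 and 8.20 with sip53, and 8.51 and 8.46 with siNC. The siATM values overlapped none of the siNC values but differed by only -0.04 from them in the mean (adjusted p = 0.668, limma), whereas it fell with sip53 by 0.33 on the log2 scale (SE 0.06, adjusted p = 0.0169). LY96, its lipopolysaccharide-binding partner, differed from siNC by 0.09 with siATM (adjusted p = 0.546) and by -0.15 with sip53 (adjusted p = 0.392). Of 22 genes listed for this receptor complex and its signalling, 15 were tested. With siATM 1 was higher, TLR6 (0.24, adjusted p = 0.0247), and 1 lower, the kinase gene IRAK1 (-0.34, adjusted p = 0.0063), or 13.3% of the list against 25.5% of all tested genes. With sip53 3 were lower, the kinase-like IRAK2 (-0.34, adjusted p = 0.0303), TLR4 and the adaptor TIRAP (-0.26, adjusted p = 0.0455), or 20% against 10.6%. The list's median difference was 0.02 with siATM and -0.01 with sip53. The IRAK1 call held without each array in turn. TLR6 lost it without any 1 of the siATM and siNC arrays (adjusted p up to 0.130). TLR4, IRAK2 and TIRAP lost theirs without any 1 of the sip53 and siNC arrays (up to 0.121, 0.176 and 0.235). With siATM against sip53, 3 were higher and 1 lower, or 26.7% against 30.3%, and TLR4 was higher by 0.29 (adjusted p = 0.0105), a call lost without sip53 replicate 1 (adjusted p = 0.0821).

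Of 25 genes listed for selectins and the making of their ligands only 9 were tested, since most fucosyl- and sialyltransferases were not named in the annotation used. With siATM 1 was higher and 2 lower, and with sip53 1 was higher and 1 lower. These were 33.3% and 22.2% of the list, against 25.5% and 10.6% of all tested genes. The list's median difference from siNC was -0.07 with siATM and 0.04 with sip53. CD24, a mucin-like protein that also binds P-selectin, had log2 values of 6.35 and 6.08 with siATM, 6.45 and 6.58 with sip53, and 6.94 and 7.17 with siNC. It fell with both siRNAs, by 0.84 (SE 0.11, adjusted p = 0.0024) with siATM and by 0.54 (SE 0.11, adjusted p = 0.0264) with sip53, a call with sip53 that was lost without any 1 of the sip53 and siNC arrays (up to 0.137). CD24 therefore ran against SELPLG with siATM. VSIR, an inhibitory receptor that SELPLG can bind, rose by 0.26 with siATM (adjusted p = 0.0458) and lost its call whichever array was left out (up to 0.211). CD34 had a difference of -0.24 with siATM (adjusted p = 0.0425), and lost its call without any 1 array except siNC replicate 1 (up to 0.212). TPST2, one of the tyrosine sulfotransferases that modify SELPLG, rose by 0.26 with sip53 (adjusted p = 0.0419) and lost its call without any 1 of the sip53 and siNC arrays (up to 0.196). In the direct comparison TPST2 (-0.22, adjusted p = 0.0351) and TPST1 (-0.36, adjusted p = 0.0374) were lower with siATM, opposite in sign to SELPLG. Both of these calls were lost without any 1 array except siATM replicate 1 (up to 0.157 for TPST2 and 0.171 for TPST1).

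Around CD22, 7 of 14 other Siglec genes were tested. Of these 0 were called in any of the 3 comparisons (limma). The shares of all tested genes called were 25.5% with siATM, 10.6% with sip53 and 30.3% between siATM and sip53. At an unadjusted p below 0.05 there were 0 of the 7 Siglec genes with siATM, 0 with sip53 and 2 between siATM and sip53. Their differences from siNC ranged from -0.19 to 0.16 with siATM and from -0.11 to 0.25 with sip53, against 0.68 and -0.47 for CD22. All of them but SIGLEC15 had group means between 5.93 and 6.55, near the filter of 5.96. The group means of CD22 lay between 7.85 and 8.99, so its differences and theirs are not compared at like levels. Several Siglec genes are close relatives whose probe sets may share sequence. Of 18 signalling partners listed for CD22, 6 were tested. The kinase LYN, which phosphorylates CD22 in B cells, rose with siATM to 9.85 and 9.75, against 9.40 and 9.38 with siNC (log2 difference 0.41, SE 0.06, adjusted p = 0.0038), and its sip53 values were 9.46 and 9.52. The adaptor gene GRB2 fell with sip53 to 9.61 and 9.64, against 10.20 and 10.13 with siNC (-0.54, SE 0.06, adjusted p = 0.00262). Its siATM difference was -0.01. These 2 calls held whichever array was left out. Each was 1 of 6 genes, or 16.7% of the list, against 25.5% of all tested genes with siATM and 10.6% with sip53. With siATM against sip53, GRB2 (0.53), LYN (0.31) and SHC1 (0.29) were higher with siATM, or 50% of the list against 30.3% of all tested genes. The LYN call did not hold without sip53 replicate 1 (adjusted p = 0.0646). The SHC1 call did not hold without any 1 sip53 array or siATM replicate 2 (up to 0.160).

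Sialic acid, the ligand of CD22, is made and removed by enzymes of which 10 of 20 listed were tested. NANP, the phosphatase of the sialic acid synthesis pathway, had log2 values of 8.48 and 8.59 with siATM, 7.87 and 7.72 with sip53, and 8.51 and 8.43 with siNC. It fell with sip53 (-0.67, SE 0.08, adjusted p = 0.00323), the single call of the list in that comparison, and it was higher with siATM than with sip53 by 0.74 (adjusted p = 0.000684), and both calls held whichever array was left out. With siATM against siNC 2 were higher and 1 lower, the acetylesterase gene SIAE (0.34, adjusted p = 0.00444), the protective protein gene CTSA (0.20, adjusted p = 0.032) and the sialidase gene NEU3 (-0.39, adjusted p = 0.0263). SIAE lost its call when all probe sets of the gene were averaged (adjusted p = 0.100). CTSA lost it whichever array was left out (up to 0.128), and NEU3 without any 1 of the siATM and siNC arrays (up to 0.138). Calls made up 30% of the list with siATM and 10% with sip53, against 25.5% and 10.6% of all tested genes. Between siATM and sip53 they made up 20% of the list, against 30.3% of all tested genes. The list's medians were 0.02 with siATM and 0.01 with sip53.

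CD274, the gene of PD-L1 and the closest relative of PDCD1LG2, had log2 values of 7.57 and 7.19 with siATM, 8.09 and 8.03 with sip53, and 7.70 and 7.89 with siNC. The siATM arrays were the lowest and the sip53 arrays the highest, without overlap. CD274 was lower with siATM than with sip53 by 0.68 (SE 0.12, adjusted p = 0.00619, limma), and this call held whichever array was left out. Against siNC, CD274 fell with siATM by 0.41 on the log2 scale (adjusted p = 0.0478), but the call was lost without siATM replicate 2 or any 1 of the sip53 and siNC arrays (up to 0.210). With sip53 its difference from siNC was 0.26 (adjusted p = 0.228). The corresponding differences of PDCD1LG2 were -1.29 with siATM and -0.14 with sip53.

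Other checkpoint and immune recognition ligands of the list went both ways. Of 37 listed, 15 were tested, and with siATM 3 were higher and 2 lower than with siNC, or 33.3% against 25.5% of all tested genes. Beside CD274 these were the NKG2D ligand genes RAET1E (-0.45, adjusted p = 0.049), ULBP2 (0.34, adjusted p = 0.025) and MICA (0.32, adjusted p = 0.021), and CD276 (0.25), which was named after its value was seen. The RAET1E call was lost without replicate 1 of siATM or of siNC and without any 1 of the sip53 arrays (up to 0.212). The ULBP2 call was lost without any 1 siNC array and without replicate 1 of siATM (up to 0.100), and the MICA call without siATM replicate 1 or siNC replicate 2 (up to 0.118). With sip53 2 were higher and 1 lower, or 20% against 10.6%. MICB rose with sip53 by 0.47 (SE 0.06, adjusted p = 0.00461), a call that held without each array in turn. MICA rose by 0.44 (adjusted p = 0.0137), a call lost without any 1 sip53 array and without siNC replicate 2 (up to 0.0923), and it is a close relative of MICB whose probe set may share sequence. ICOSLG, the ligand of the co-stimulatory receptor ICOS, fell by 0.44 (adjusted p = 0.0121), a call lost without any 1 of the sip53 and siNC arrays (up to 0.0868). Between siATM and sip53, 6 of the 15 were higher and 3 lower with siATM, or 60% against 30.3% of all tested genes. Among them were MICB (-0.60, adjusted p = 0.000621) and the poliovirus receptor gene PVR (0.37, adjusted p = 0.0038), which held whichever array was left out, and NECTIN2 (0.31, adjusted p = 0.0121), which lost its call without either sip53 array (up to 0.0714). The list's median difference was 0.10 with siATM and -0.03 with sip53.

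Signalling through interferon gamma receptors, JAK kinases and STAT factors is known to induce both PD-1 ligands, and 18 of 26 listed genes were tested. IRF1, a transcription factor induced by interferon, had log2 values of 8.80 and 8.61 with siATM, 9.12 and 9.13 with sip53, and 9.05 and 9.13 with siNC. It was lower with siATM than with sip53 by 0.42 (SE 0.08, adjusted p = 0.00591), a call that held whichever array was left out. Against siNC it fell with siATM by 0.38 (adjusted p = 0.0108), and lost its call without siNC replicate 2 (adjusted p = 0.067). The siATM arrays were low for IRF1, as they were for PDCD1LG2 and CD274, while the sip53 and siNC arrays of IRF1 overlapped. Whether the values of these genes are linked was not tested. The other calls with siATM were SOCS2 (-0.39, adjusted p = 0.0247) and IRF3 (0.18, adjusted p = 0.0479). This made 1 higher and 2 lower, or 16.7% of the list against 25.5% of all tested genes. The SOCS2 call was lost without any 1 siNC array and without replicate 1 of siATM (up to 0.121), and the IRF3 call whichever array was left out (up to 0.169).

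With sip53, 2 of these signalling genes were higher and 2 lower, or 22.2% of the list against 10.6% of all tested genes. SOCS1, a feedback inhibitor of JAK kinases, had log2 values of 9.26 and 9.34 with siATM, 9.97 and 9.96 with sip53, and 9.50 and 9.39 with siNC. It rose with sip53 by 0.52 (SE 0.06, adjusted p = 0.00417), and was lower with siATM than with sip53 by 0.66 (adjusted p = 0.000565), and both calls held whichever array was left out. STAT3 fell with sip53 by 0.40 (adjusted p = 0.0065), a call lost without sip53 replicate 2 or siNC replicate 1 (up to 0.0615). JAK1 fell by 0.27 (adjusted p = 0.0238), a call lost without any 1 of the sip53 and siNC arrays (up to 0.138), and SOCS3 rose by 0.28 (adjusted p = 0.0454), a call lost whichever array was left out (up to 0.227). The list's median difference was -0.07 with siATM and 0.04 with sip53. Only 7 of 20 genes of antigen presentation on MHC class I were tested. In that list ERAP2 was the single call with siATM (-0.39, adjusted p = 0.0196), lost without any 1 siNC array and without siATM replicate 2 (up to 0.0978), and TAPBPL the single one with sip53 (0.49, adjusted p = 0.00411), which held without each array in turn. Each of these 2 calls was 14.3% of the list, against 25.5% of all tested genes with siATM and 10.6% with sip53. The median difference of the list was -0.01 with siATM and 0.04 with sip53.

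**Figure D4:**
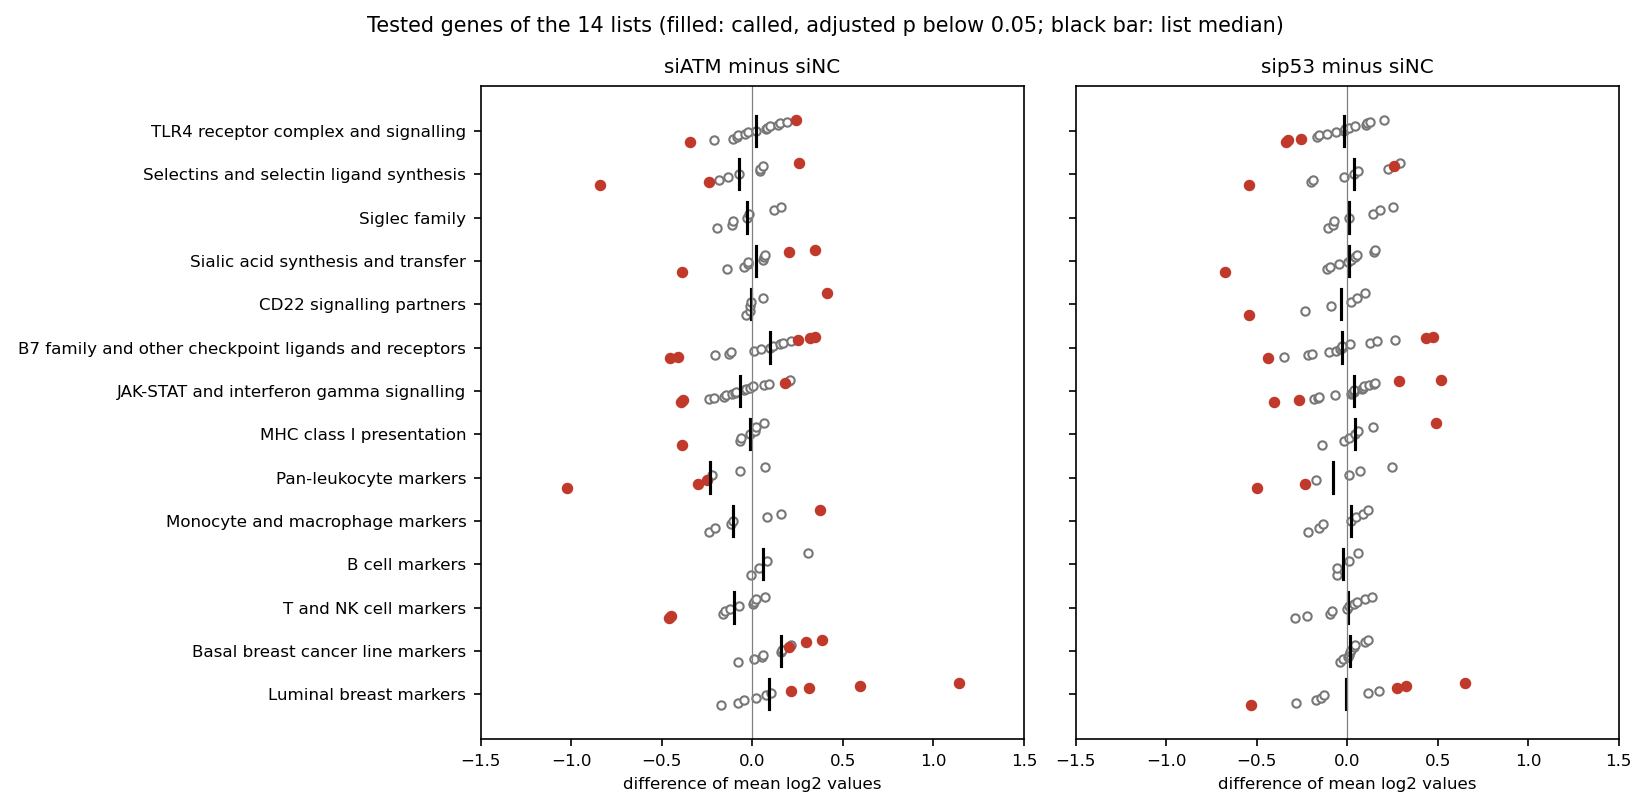
Difference of mean log2 values from siNC for the tested genes of the 14 lists, with siATM on the left and sip53 on the right. Filled points are genes with adjusted p below 0.05, open points the others, and black bars list medians, which range from -0.23 to 0.16.

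Because the 4 genes are typical of leukocytes, markers of those cells were read beside them. The defining markers PTPRC, MS4A1, ITGAM and CD3E were not named in the annotation and are not analysed here. Of 20 monocyte and macrophage markers 11 were named and 7 tested. The log2 values summed over all 11 named, dim ones included, were 72.9 and 73.1 with siATM, 73.2 on both sip53 arrays, and 73.0 and 73.2 with siNC. CSF1R, the receptor of macrophage colony stimulating factor, had log2 values of 7.54 and 7.64 with siATM, 7.69 and 7.80 with sip53, and 7.70 and 7.69 with siNC, which differed by -0.11 with siATM (adjusted p = 0.280) and 0.05 with sip53 (adjusted p = 0.707). LYZ, the lysozyme gene, was the single call with siATM, at 7.35 on both arrays, against 6.95 and 7.0 with siNC (0.38, SE 0.06, adjusted p = 0.00392). In that comparison 4 of the 7 had an unadjusted p below 0.05 (limma). With sip53 0 of the 7 were called (limma), and 1 had an unadjusted p below 0.05. The call with siATM was 14.3% of the 7, against 25.5% of all tested genes, and with sip53 10.6% of all tested genes were called. With siATM against sip53, LYZ (0.53, adjusted p = 0.000785) and CD68 (0.29, adjusted p = 0.0128) were higher with siATM, and the myeloid transcription factor gene SPI1 (-0.36, adjusted p = 0.0102) and S100A9 (-0.29, adjusted p = 0.016) were lower. These were 57.1% of the 7, against 30.3% of all tested genes. Both LYZ calls held without each array in turn, while CD68 lost its call without siATM replicate 2 or sip53 replicate 1 (up to 0.0859), SPI1 without sip53 replicate 2 (adjusted p = 0.0613) and S100A9 without any 1 sip53 array and without siATM replicate 2 (up to 0.0894).

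Of 14 B cell markers 8 were named and 4 tested. The log2 values summed over all 8 named, dim ones included, were 46.5 and 46.1 with siATM, 45.7 and 46.4 with sip53, and 46.7 and 45.8 with siNC. The 3 groups overlapped. Of the 4 tested, 0 were called in any comparison (limma), and 0 had an unadjusted p below 0.05. Over all tested genes 25.5% were called with siATM, 10.6% with sip53 and 30.3% between siATM and sip53. Of 16 T and NK cell markers 12 were named and 10 tested. The sums over all 12 named were 75.4 and 76.0 with siATM, 76.6 and 77.2 with sip53, and 77.4 and 77.1 with siNC. LCK (-0.46, adjusted p = 0.00647) and CD4 (-0.45, adjusted p = 0.00334) fell with siATM and kept these calls whichever array was left out. They were 20% of the 10 tested, against 25.5% of all tested genes. With sip53 0 of the 10 were called, against 10.6% of all tested genes, with 2 at an unadjusted p below 0.05.

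Of 14 markers shared by leukocytes 10 were named and 6 tested. The log2 values summed over all 10 named were 63.5 and 63.7 with siATM, 64.7 and 64.5 with sip53, and 65.5 and 65.7 with siNC. With siATM 3 of the 6 fell and with sip53 2 fell, or 50% and 33.3%, with median differences of -0.23 and -0.08. Over all tested genes 25.5% were called in either direction with siATM (13% lower) and 10.6% with sip53 (5.11% lower). The sums were lowest with siATM, and LAPTM5 had the largest difference of the list. LAPTM5, a lysosomal membrane protein gene, had log2 values of 10.6 on both siATM arrays, 11.1 and 11.2 with sip53, and 11.6 on both siNC arrays. It fell with siATM by 1.02 (SE 0.06, adjusted p = 0.000202) and with sip53 by 0.50 (SE 0.06, adjusted p = 0.00422), and kept both calls whichever array was left out. ARHGDIB fell with siATM by 0.30 (adjusted p = 0.00803) and with sip53 by 0.23 (adjusted p = 0.0419), a call with sip53 that was lost without any 1 of the sip53 and siNC arrays (up to 0.217). LCP1 fell with siATM by 0.25 (adjusted p = 0.033), a call lost without any 1 array except siNC replicate 1 (up to 0.174). The part of these markers in the results for the 4 genes was not tested. As a check of the line's label, its mesenchymal and basal markers VIM, AXL and CD44 all lay above the filter on every array, whereas ESR1 and PGR, the hormone receptor genes absent from triple-negative cancers, lay below it. Of the luminal markers as a whole, 10 of 13 named were at or above the filter, EPCAM, XBP1 and GATA3 among them.

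Genes next to the 4 on their chromosomes were compared by the order of the RefSeq gene table. Of the 24 nearest tested neighbours, 3 on each side of each gene, 3 were higher and 2 lower with siATM than with siNC. With sip53 1 was higher. Over all tested genes 25.5% and 10.6% were called in these 2 comparisons. Between siATM and sip53, 2 neighbours were higher and 3 lower with siATM, where 30.3% of all tested genes were called. The calls with siATM against siNC included TMCO6 (0.33, adjusted p = 0.018) and WDR55 (0.27, adjusted p = 0.0206), which flank CD14. The others were RIC1 (0.21, adjusted p = 0.0376) and CD274 beside PDCD1LG2, and SSH1 (-0.21, adjusted p = 0.0351) beside SELPLG. The neighbour called with sip53 was HAMP (0.23, adjusted p = 0.0452), beside CD22. Of the siATM calls, RIC1 and SSH1 were lost whichever array was left out (up to 0.162 and 0.169). TMCO6 was lost without either siATM array or siNC replicate 2 (up to 0.104), and WDR55 without any 1 siNC array and without siATM replicate 1 (up to 0.115). HAMP was lost without any 1 of the sip53 and siNC arrays (up to 0.212).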

How the data were processed

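The authors deposited 1 log2 value per probe set and array (Affymetrix Human Gene 2.0 ST, per the labels' design text), a scale taken from their range of 1.33 to 14.2. Background correction, summarisation, normalization and annotation build are not given in the sources used here. After sorting, values ranged across arrays by a mean of 0.0325, so the arrays share nearly 1 distribution, in which a change of total RNA would not show. Without scanner files, detection calls and scan batches were not analysed here. Precision is set by the number of arrays.

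Of 53617 probe sets, 16098 had 1 gene symbol, 0 several and 37519 none. The probe set with the highest mean stood for a gene. Genes were tested if their mean reached 5.96 (the median over probe sets), with limma 3.58.1 (R 4.3.3) on all 6 arrays, with 3 residual and 7.29 total degrees of freedom. Two-sided p-values were adjusted per contrast (Benjamini-Hochberg), and SE is limma's moderated one. The fit was tested on simulated data. Fold changes are powers of the log2 difference. Promoter windows came from RefSeq (GRCh38.p14).

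The 4 genes, the 14 lists and the rules were chosen with earlier results of these data known. Genes named were the 4, the 3 nearest to each, up to 4 called genes of largest difference per list and contrast, a few preset genes and chromosomal neighbours, and not every gene the rule allows is named. Alternatives were other scalings, filters, moderation, probe-set averaging, a replicate block and leaving out each array.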

Additional observations from a re-analysis of the deposited data

How the results depend on the processing

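Every difference of CD14, SELPLG, CD22 and PDCD1LG2 kept its sign under quantile normalization, median centring, averaging of probe sets, the replicate block and each array left out. With arrays left out, CD14 ranged from -0.93 to -0.62 (sip53 against siNC) and from 1.81 to 2.12 (siATM against sip53), SELPLG from -0.38 to -0.26 and from 1.29 to 1.41, CD22 from -0.49 to -0.46 and from 1.13 to 1.16, and PDCD1LG2 from -1.38 to -1.21 (siATM against siNC) and from -1.23 to -1.06 (siATM against sip53). Median centring gave CD22 -0.51 (sip53 against siNC) and 1.17 (siATM against sip53). Genes called with sip53 numbered 481 without the filter and 1742 with trended, robust variance moderation, against 1126. With arrays left out, calls ranged from 1437 to 2226 (siATM against siNC), 272 to 1242 (sip53 against siNC) and 1842 to 2852 (siATM against sip53), with fewer arrays in each fit. The same replicate numbers did not show pairing, since deviations of same-numbered arrays correlated at 0.12, 0.04 and 0.03 and only 2 numbers exist. With the replicate block 2696, 1001 and 3218 genes were called, and of the genes named the block ended the calls of CD274, IRF3, RAET1E and VSIR (siATM against siNC) and of ARHGDIB, HAMP and TIRAP (sip53 against siNC), with adjusted p between 0.0518 and 0.0633. Of the called genes the naming rule gave, 10 of 34, 8 of 22 and 15 of 37 kept their call under every alternative in which they were tested, and the cause of the losses was not tested beyond the smaller fits. Counts of calls per list moved by over 1.5 times in 90 of 252 results with an array left out and in 43 of 294 others, so these small counts are imprecise.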

Other observations

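Of 16 luminal breast markers, 10 were tested, and 4 were higher with siATM than with siNC while 3 were higher and 1 lower with sip53. This was 40% of the list in each comparison, against 25.5% of all tested genes with siATM and 10.6% with sip53. KRT7 was called higher in both (0.21 with siATM, 0.28 with sip53), and neither of its calls held when arrays were left out. CLDN7, a tight-junction claudin, had log2 values of 10.6 on both siATM arrays, 9.44 and 9.50 with sip53, and 10.0 and 9.99 with siNC. It rose with siATM by 0.59 (SE 0.06, adjusted p = 0.000891, limma) and fell with sip53 by 0.53 (SE 0.06, adjusted p = 0.00296). AGR2, a secreted disulfide isomerase gene, rose with siATM by 1.14 (SE 0.07, adjusted p = 0.000207), and GATA3, a luminal transcription factor gene, rose with sip53 by 0.65 (SE 0.08, adjusted p = 0.00417). These calls of CLDN7, AGR2 and GATA3 held whichever array was left out. GATA3 with siATM (0.31, adjusted p = 0.0273) and AGR2 with sip53 (0.32, adjusted p = 0.03) lost theirs. The first call was lost without any 1 siNC array and without replicate 1 of siATM (up to 0.121), the second without any 1 of the sip53 and siNC arrays (up to 0.173).

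Of 18 genes listed as markers of basal breast cancer lines, 10 were tested. The list also holds the keratin genes KRT8, KRT18 and KRT19, which luminal cells express too, so it is not specific to basal lines. With siATM 3 were higher, or 30% against 25.5% of all tested genes. They were the calcium-binding protein gene S100A4 (0.39, adjusted p = 0.0162), KRT19 (0.29, adjusted p = 0.0178) and ANXA1 (0.20, adjusted p = 0.0345). S100A4 lost its call without siATM replicate 1 or siNC replicate 2. KRT19 lost it without siATM replicate 2 or siNC replicate 1, and ANXA1 whichever array was left out. The list's median difference was 0.16 with siATM and 0.02 with sip53. With sip53 0 of the 10 were called (limma), against 10.6% of all tested genes, and 0 had an unadjusted p below 0.05.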
